A study of Mus musculus with 6 samples.

Results

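The genes described here build the cornified envelope, the cross-linked protein shell that replaces the plasma membrane of a terminally differentiated keratinocyte. Every entry whose symbol begins with Sprr or with Lce and a digit was taken, together with a list of named genes: Lor, Flg2, Ivl, Rptn, Hrnr, Tchh, Crnn, Tgm1, Tgm3, Tgm5, Krtdap, Sbsn, Calml3, Cnfn, Casp14, Aloxe3, Alox12b and Cdsn. This gave 51 of the 23358 entries in the table, of which 15 were Sprr, 18 were Lce and 18 were named. Flg was also asked for and was not analysed here. RNA was sequenced from 6 NT3 tumors of 6 female mice, 3 from each of the lines Osx-Cre;NT3 and FSP1-Cre;NT3. Osx-Cre;NT3 tumors 13, 18 and 25 all lay on the trunk and were found at 150, 168 and 115 days. FSP1-Cre;NT3 tumors 27 and 36 were perineal and tumor 29 lay on the trunk, with latencies of 101, 52 and 72 days.

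All 6 tumors carried NT3, an allele of the kinase NIK (Map3k14) without its TRAF3-binding domain, which sits in the ROSA26 locus behind a floxed stop cassette and is switched on by Cre. The lines differ in the promoter that drives Cre. Osx-Cre uses the Osterix (Sp7) promoter of the osteoblast lineage as a GFP::Cre fusion that doxycycline holds off, here until weaning, in mice of mixed C57Bl/6J and CD1 stock. FSP1-Cre uses the S100a4 promoter, is active in fibroblasts and also in myeloid cells, and came from FVB/n. The NT3 mice were C57Bl/6J, and their females were bred to Cre males of either kind, so mice of both lines are crosses with C57Bl/6J. Line and background therefore change together, as does latency, which was shorter in every FSP1-Cre;NT3 tumor. Site changes with line only in part, as FSP1-Cre;NT3 tumor 29 lay on the trunk. No tumor-free tissue was among the samples used here. Total counts per tumor lay between 51824408 and 163297772. Both fibroblast and basal keratinocyte markers were abundant in every tumor: 5 fibroblast genes summed to between 3458 and 10530 CPM, which relate a count to the size of its library, and 6 basal keratinocyte genes to between 5670 and 14245 CPM. In such whole-tumor RNA, fewer cells of a type and less RNA per cell cannot be told apart. The paper proposes that the skin terms among its enriched processes likely came from skin left on the excised tumors. This was not tested here.

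A keratinocyte that leaves the basal layer first deposits involucrin (Ivl) and small proline-rich proteins (Sprr) under its membrane, then adds loricrin (Lor) and late cornified envelope proteins (Lce). Transglutaminases cross-link these proteins, S100-fused proteins such as hornerin and trichohyalin bundle keratin filaments, and lipoxygenases help attach the lipid layer outside. Most of the structural genes lie side by side in the epidermal differentiation complex.

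In these tumors, 40 of the 51 members lay in that complex, between Lor and Tchh at chr3:92080271-93449077 of mm10, which spans 1368807 bases and holds 49 entries. The other 11 lay on other chromosomes. As examples from members of different roles, the 120 bases before the RefSeq start (GRCm38.p6, the build called mm10) are printed for 5 genes. Capitals mark 2 motifs, the AP-1 letters TGANTCA and the TATA box letters TATAAA, searched on both strands. Lor, the main late precursor, at chr3:92083143-92083262 on the minus strand, Sprr1a, an early precursor, at chr3:92485882-92486001 on the minus strand, and Krtdap, a secreted peptide, at chr7:30787785-30787904 on the plus strand hold both. Lce1a1, at chr3:92648308-92648427 on the minus strand, and Tchh, at chr3:93442210-93442329 on the plus strand, hold neither.
Lor: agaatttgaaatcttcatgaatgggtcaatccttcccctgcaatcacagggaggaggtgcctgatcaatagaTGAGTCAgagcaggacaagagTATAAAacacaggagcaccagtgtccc
Sprr1a: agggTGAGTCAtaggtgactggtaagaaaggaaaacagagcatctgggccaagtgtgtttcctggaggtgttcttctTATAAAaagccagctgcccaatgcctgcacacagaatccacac
Krtdap: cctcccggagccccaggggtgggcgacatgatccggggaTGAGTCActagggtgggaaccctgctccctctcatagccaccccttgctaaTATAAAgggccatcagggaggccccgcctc
Lce1a1: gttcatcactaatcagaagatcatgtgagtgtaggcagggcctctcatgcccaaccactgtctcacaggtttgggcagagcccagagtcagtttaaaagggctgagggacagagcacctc
Tchh: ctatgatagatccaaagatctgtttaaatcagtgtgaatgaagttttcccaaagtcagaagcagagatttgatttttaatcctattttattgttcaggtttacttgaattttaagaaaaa

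RefSeq gave 48 promoters of 300 bases for 46 of the 51 members. The AP-1 letters stood in 9 of 13 Sprr promoters, in 0 of 17 Lce promoters and in 7 of 18 promoters of other members, against 7.81% of 32851 promoters of the same length. TATAAA stood in 10 of 13 Sprr promoters, 3 of 17 Lce promoters and 7 of 18 promoters of other members, against 13.6% of all. The KLF letters CCACCC were in 5 of 13 Sprr promoters, 1 of 17 Lce promoters and 9 of 18 promoters of other members, against 31.5% of all. The NF-kB letters GGGNNNTTC were in 4 of the 48 member promoters, against 14.0% of all. These matches describe the sequence and not binding.

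Many of these genes arose by local duplication, and their near-identical coding sequences limit what short reads can assign. To show how alike they are, the first 120 coding bases of a pair from each family are printed from GENCODE M21, with the bases that differ from the first of the pair in capitals. Lce1a1 at chr3:92647046-92647165 and Lce1a2 at chr3:92669134-92669253, both on the minus strand, differed at 2 of 120 bases. Sprr2d at chr3:92340254-92340373 and Sprr2e at chr3:92352864-92352983, both on the plus strand, differed at 5.
Lce1a1: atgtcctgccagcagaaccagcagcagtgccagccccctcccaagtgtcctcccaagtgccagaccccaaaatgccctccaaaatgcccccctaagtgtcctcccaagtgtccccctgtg
Lce1a2: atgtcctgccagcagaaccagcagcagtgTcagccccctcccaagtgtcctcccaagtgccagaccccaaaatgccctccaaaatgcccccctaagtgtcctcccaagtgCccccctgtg
Sprr2d: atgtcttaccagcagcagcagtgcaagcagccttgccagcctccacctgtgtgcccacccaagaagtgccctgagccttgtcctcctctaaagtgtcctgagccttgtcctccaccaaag
Sprr2e: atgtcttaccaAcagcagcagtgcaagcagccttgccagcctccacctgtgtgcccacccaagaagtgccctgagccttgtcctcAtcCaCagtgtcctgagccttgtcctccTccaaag

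Over whole transcripts, 19.9% of the 50-base stretches of Lce1a1 and 15.0% of those of Lce1a2 recurred in another annotated gene, as did 48.04% of those of Lce3f. No stretch of Lor, Tchh, Tgm3 or Krtdap did so. Values of single Lce1, Lce3 and Sprr2 genes are therefore less certain than their sums. Sprr2a1 and Sprr2a2 were listed at the same coordinates, chr3:92215835-92257304, and held no count in any tumor, so no statement on their expression was possible.

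One tumor dominated the set. The perineal FSP1-Cre;NT3 tumor 36, which arose earliest, had the highest CPM for 48 of the 51 members, and the 27 members with a mean of at least 1 CPM over the 6 tumors were all highest there. Among the 43 members that passed the low-count filter of the line comparison, 42 were highest in tumor 36, against 24.7% of all 16415 genes tested. The CPM values here were scaled with TMM, edgeR's trimmed mean of M-values. In tumor 36 the level was more than 2 times that of the next tumor for 37 of 51 members, and for 32 of the 43, against 7.95% of all genes tested. The exceptions to the maximum in tumor 36 were Sprr2j-ps, a pseudogene with its highest value, 0.869 CPM, in tumor 13, and the pair without counts.

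The sum over the members was 305, 231 and 211 CPM in Osx-Cre;NT3 tumors 13, 18 and 25, and 145, 248 and 1046 CPM in FSP1-Cre;NT3 tumors 27, 29 and 36. Outside tumor 36 the lines overlapped, with the lowest sum in the other perineal tumor, 27. Set against the summed Krt5 and Krt14, the keratin pair of the basal layer, the members' summed RPKM, the authors' depth- and length-scaled values, came to between 2.42% and 4.98% in 5 tumors and to 35.3% in tumor 36. Both terms moved there, since Krt5 and Krt14 summed to 1751 RPKM in tumor 36 and to between 2738 and 3962 RPKM in the others.

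**Figure D1:**
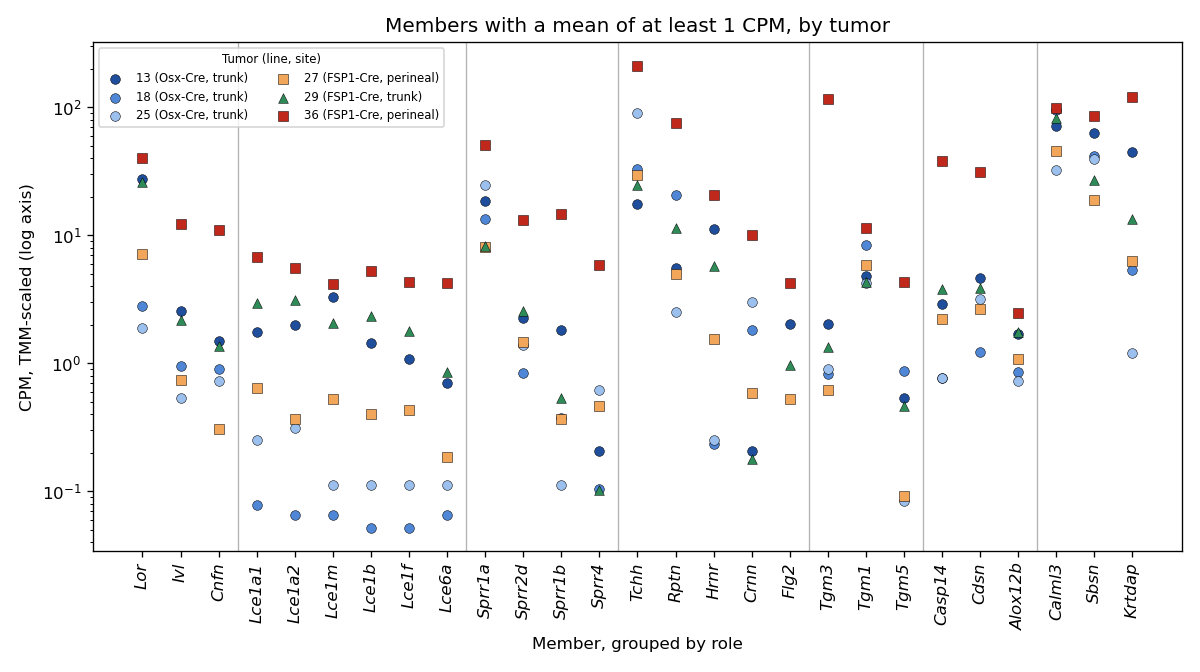
CPM of the 27 members with a mean of at least 1 CPM (log axis), grouped by role, with 1 point per tumor; a value of 0 has no point. The red squares of tumor 36 are the highest point for each gene, while the order of the other 5 tumors changes from group to group.

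Values in every tumor are given below in 1 order, Osx-Cre;NT3 tumors 13, 18 and 25 first and FSP1-Cre;NT3 tumors 27, 29 and 36 second. Among the envelope precursors, Lor, which makes up most of the mature envelope of the epidermis, stood at 27.4, 2.78 and 1.89 CPM, then 7.18, 25.8 and 40.1 CPM. Tumors 13, 29 and 36 were thus high and tumors 18 and 25 low, across both lines. Ivl, the early scaffold on which the envelope forms, stood at 2.57, 0.948 and 0.535 CPM, then 0.737, 2.18 and 12.2 CPM. Cnfn, which codes for cornifelin, a minor envelope protein, stood at 1.49, 0.896 and 0.732 CPM, then 0.307, 1.36 and 10.9 CPM. For Ivl and Cnfn the other 5 tumors lay under 3 CPM, from 0.535 to 2.57 CPM and from 0.307 to 1.49 CPM. Tumor 36 stood 4.75 and 7.34 times above the next, while for Lor it stood only 1.46 times above tumor 13.

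The Lce genes, late precursors that are added under the envelope of the outer epidermis, varied most between tumors as a group. Their sum was 16.4, 0.571 and 1.44 CPM in the Osx-Cre;NT3 tumors and 4.14, 22.8 and 55.8 CPM in the FSP1-Cre;NT3 tumors, a 97.6-fold range. Tumor 18 had the lowest sum although it had the deepest library, where 3 counts come to 0.0184 CPM. The counting error in it was small beside the spread between tumors: Lce1a1 had 12 counts in tumor 18 and 430 in tumor 36. The 13 Lce1 entries carried most of the sum, with 46.6 CPM in tumor 36, and the 4 Lce3 entries, a group known from injured or inflamed skin, reached 4.96 CPM there and at most 1.08 CPM elsewhere.

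The single Lce genes repeated 1 order. For 16 of the 18, tumors 18 and 25 were both below tumors 13, 27 and 29, and for 16 the highest of those 5 was tumor 29. Part of this order rested on few counts: in tumors 18, 25 and 27, Lce3c had 0, 0 and 2 counts and Lce3f 4, 0 and 4. Because the Lce genes share sequence, they are also not separate repeats of the order. Lce1a1 stood at 1.74, 0.0779 and 0.253 CPM, then 0.645, 2.98 and 6.70 CPM. Lce1a2 stood at 1.99, 0.0649 and 0.310 CPM, then 0.368, 3.13 and 5.52 CPM. Lce1m stood at 3.27, 0.0649 and 0.113 CPM, then 0.522, 2.08 and 4.18 CPM. For Lce1m tumor 13 came second, as it did by a small margin for Lce1c, and tumor 36 was only 1.28 times above it.
Lce1b stood at 1.45, 0.0520 and 0.113 CPM, then 0.399, 2.33 and 5.21 CPM. Lce1f stood at 1.08, 0.0520 and 0.113 CPM, then 0.430, 1.77 and 4.33 CPM. Lce6a, the sole Lce6 entry, stood at 0.704, 0.0649 and 0.113 CPM, then 0.184, 0.846 and 4.21 CPM. Both Lce1 genes and Lce6a thus placed tumor 29 second. The other 12 Lce entries had means under 1 CPM, with 0.436 to 3.34 CPM in tumor 36 and at most 1.41 CPM in any other tumor.

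The Sprr genes, early precursors that also rise in stressed and healing epithelium, did not share the order of the Lce genes. Their sum was 25.0, 15.8 and 27.4 CPM, then 12.1, 13.5 and 97.8 CPM, and tumors 18 and 25 were the lowest pair for 3 of 15. Sprr1a made up most of it in every tumor and stood at 18.5, 13.3 and 24.7 CPM, then 8.04, 8.18 and 50.6 CPM. The Osx-Cre;NT3 tumors were all above tumors 27 and 29 for this gene, and below tumor 36. Sprr1b stood at 1.82, 0.377 and 0.113 CPM, then 0.368, 0.539 and 14.7 CPM. Sprr2d stood at 2.24, 0.831 and 1.38 CPM, then 1.47, 2.54 and 13.1 CPM. Sprr4 stood at 0.207, 0.104 and 0.619 CPM, then 0.460, 0.103 and 5.83 CPM. These 3 genes were low in 5 tumors, and in tumor 36 they stood 8.09, 5.14 and 9.41 times above the next. The other 11 Sprr entries had means under 1 CPM and reached at most 3.18 CPM, in tumor 36 for Sprr2h. Sprr3, a gene of oral and oesophageal epithelium, had 10 counts in tumor 18, 12 in tumor 36 and none elsewhere.

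**Figure D2:**
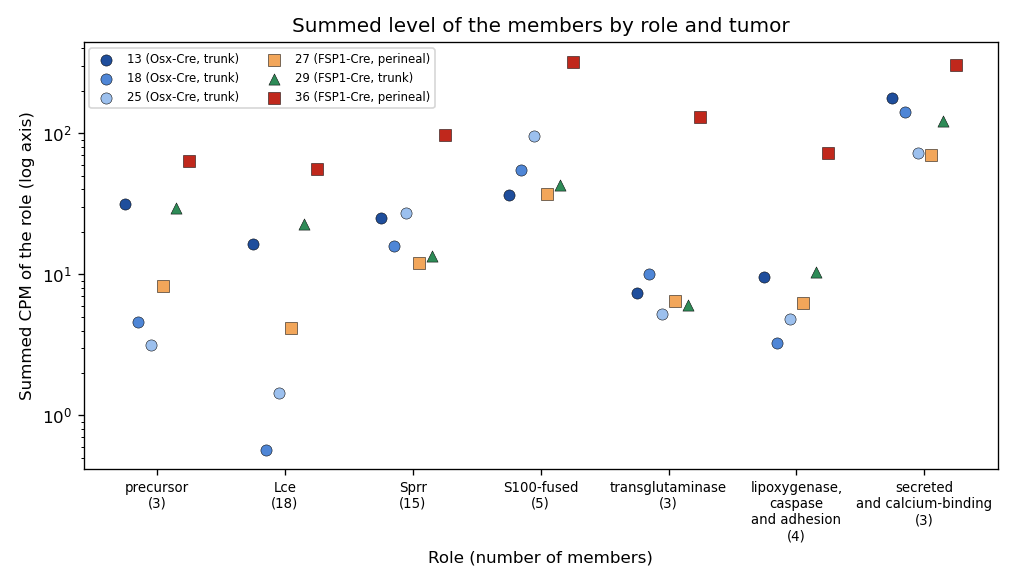
Summed CPM (log axis) of the members of each role, with the number of members in brackets and 1 point per tumor. Tumor 36 is highest in each role, the Lce sum ranges from 0.571 to 55.8 CPM, and the transglutaminase sum lies between 5.24 and 10.1 CPM in the 5 tumors other than 36, where it is 132 CPM.

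The S100-fused proteins, large filament-binding proteins with an S100 domain at one end, divided into opposite orders. Hrnr (hornerin), a protein of the outer granular layer, stood at 11.2, 0.234 and 0.253 CPM, then 1.53, 5.80 and 20.6 CPM. Flg2 (filaggrin-2), also in the complex, stood at 2.03, 0 and 0 CPM, then 0.522, 0.975 and 4.21 CPM. Here 0 allows up to 0.0184 CPM in tumor 18 and 0.0427 CPM in tumor 25. Hrnr and Flg2 both had tumors 18 and 25 as the lowest pair, as the Lce genes did.
Tchh (trichohyalin), which hardens the inner root sheath of the hair follicle, stood at 17.4, 32.6 and 90.5 CPM, then 29.5, 24.6 and 211 CPM. Crnn (cornulin), a protein of stratified epithelia, stood at 0.207, 1.81 and 2.98 CPM, then 0.583, 0.180 and 10.1 CPM. For these 2 genes tumors 18 and 25 were both above tumors 13, 27 and 29, and no other member showed that order. Rptn (repetin) had an order of its own, with 5.59, 20.4 and 2.51 CPM, then 5.003, 11.4 and 75.1 CPM, so that tumor 18 was second and tumor 25 lowest.

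Genes outside the rule showed the same 2 orders; Krt1, Krt10 and the hair keratins are set beside the members here after their values were seen. The summed Krt1 and Krt10, the keratin pair of suprabasal epidermis, was 313, 5.52 and 11.0 CPM, then 44.6, 270 and 628 CPM. This is the order of the Lce sum, except that tumor 13 lay above tumor 29. The 5 inner root sheath keratins Krt25, Krt27, Krt28, Krt71 and Krt73 summed to 4.64, 38.4 and 115 CPM, then 24.8, 4.87 and 353 CPM. Their order over the 6 tumors was that of Tchh, with tumor 25 second and tumor 18 next, and 7 hair shaft keratins ranked the same pair above the others, at 12.9 and 17.8 CPM against 1.32 to 6.14 CPM in tumors 13, 27 and 29. Of the 51 members, 25 had tumors 18 and 25 both below tumors 13, 27 and 29, and 2 had both above. This split of the tumors was taken from the values themselves. The share of all genes with either order was not computed, so these counts cannot be read as particular to the members. With 1 set of 6 tumors these orders are a description.

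**Figure D3:**
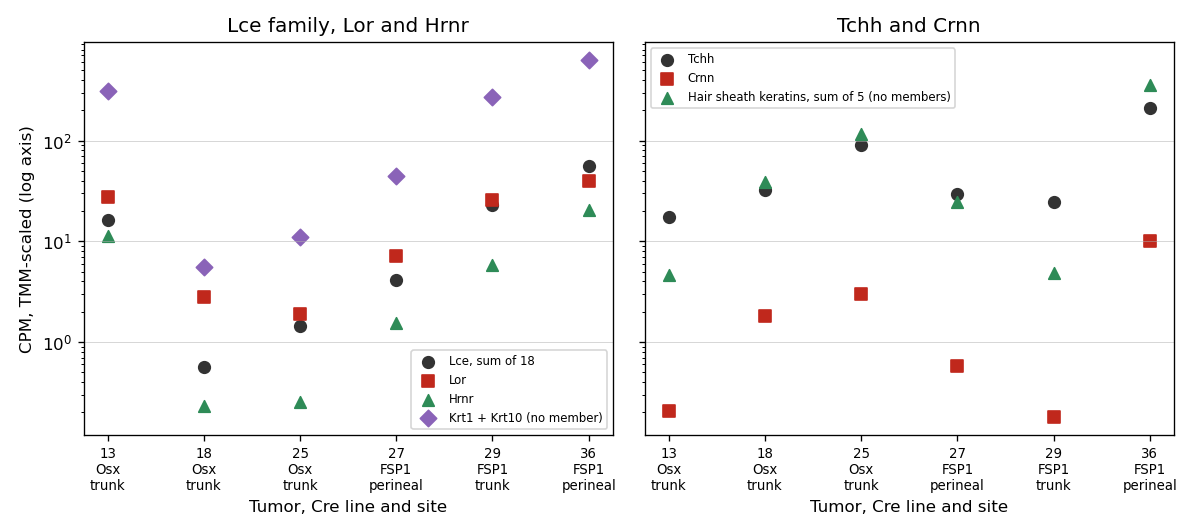
CPM by tumor (log axis), with the Lce sum, Lor, Hrnr and the summed Krt1 and Krt10 on the left, and Tchh, Crnn and the sum of 5 hair sheath keratins on the right. On the left tumors 18 and 25 are the lowest pair, and on the right they come directly below tumor 36.

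The transglutaminases form the cross-links of the envelope. Tgm3, the enzyme of the hair follicle and of the upper epidermis, stood at 2.03, 0.818 and 0.901 CPM, then 0.614, 1.33 and 116 CPM. Tumor 36 was 57.2 times above the next tumor, the largest such ratio among the members, and the other perineal tumor was the lowest of the 6. Tgm1, the membrane-bound enzyme of keratinocytes, stood at 4.76, 8.38 and 4.25 CPM, then 5.80, 4.28 and 11.3 CPM, a 2.65-fold range. Tgm5 stood at 0.538, 0.870 and 0.0845 CPM, then 0.0921, 0.462 and 4.27 CPM. For Tgm1 and Tgm5 tumor 18 was second and the lines overlapped.

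Casp14, the caspase of cornification that helps to degrade filaggrin, stood at 2.90, 0.766 and 0.760 CPM, then 2.21, 3.82 and 38.0 CPM. Cdsn (corneodesmosin), which glues cornified cells together, stood at 4.596, 1.23 and 3.18 CPM, then 2.64, 3.85 and 31.4 CPM. Both were within a few CPM in 5 tumors, and in tumor 36 they stood 9.93 and 6.82 times above the next. Alox12b, the first lipoxygenase of the barrier pathway, stood at 1.70, 0.857 and 0.732 CPM, then 1.07, 1.74 and 2.46 CPM. Its partner Aloxe3 had a mean of 0.612 CPM and a maximum of 1.34 CPM in tumor 36. The lipoxygenases thus varied far less than the caspase and the adhesion gene, with tumor 36 only 1.41 and 1.34 times above the next.

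Calml3, a calmodulin-like protein of epithelial cells, had the highest mean CPM of all members and stood at 70.6, 94.6 and 32.4 CPM, then 45.4, 82.8 and 99.0 CPM. Tumor 36 was 1.05 times above tumor 18 for this gene. Sbsn (suprabasin), a secreted protein of suprabasal cells, stood at 63.2, 41.8 and 39.3 CPM, then 18.8, 27.0 and 84.7 CPM. Krtdap (keratinocyte differentiation-associated protein) stood at 44.8, 5.38 and 1.21 CPM, then 6.26, 13.3 and 119 CPM, a 98.3-fold range. Per length, which allows genes to be compared, Krtdap was the highest member in tumors 13 and 36, at 73.9 and 211 RPKM. Calml3 was the highest member in tumors 18, 27 and 29, at 50.3, 28.1 and 46.3 RPKM, and Sprr1a in tumor 25, at 25.5 RPKM. On the same scale the share of the members' sum that fell to the Lce genes ran from 0.587% in tumor 18 to 17.6% in tumor 29, and the Sprr share from 10.1% in tumor 29 to 35.1% in tumor 25.

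**Figure D4:**
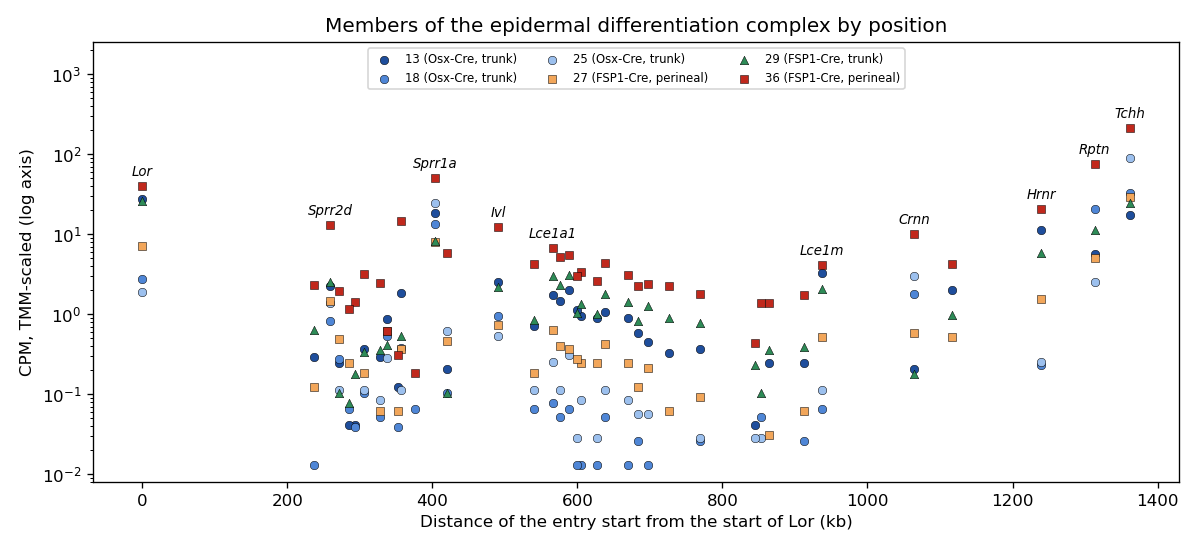
CPM (log axis) of the 40 members in the epidermal differentiation complex against the distance of each entry's start from that of Lor in kilobases, with 1 point per tumor and none for a value of 0; selected genes are named above their point for tumor 36. The block of Lce1 genes next to Lce1a1 has its low points in tumors 18 and 25, while Tchh at the far end has tumor 25 second.

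The first comparison was between the lines. By the quasi-likelihood test of edgeR, with p-values adjusted by Benjamini-Hochberg, no member was called: 0 of the 43 members tested were called at adjusted p under 0.05, and 0% of all 16415 genes tested. The smallest adjusted p of a member was 0.458. At an unadjusted p under 0.05, 2 members were higher in FSP1-Cre;NT3, Casp14 and Tgm3, or 4.65% of those tested against 7.31% of all genes. DESeq2 called 1 member, Casp14 (adjusted p = 0.0424), or 2.44% of the 41 members given an adjusted p, against 2.28% of all genes called higher. It gave Tgm3 no adjusted p in this comparison. In none of the 43 members tested did all 3 tumors of one line lie above those of the other, whereas 9.02% of all genes were higher in FSP1-Cre;NT3 without overlap.

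The fitted fold changes nonetheless pointed 1 way. Of the 43 members tested, 41 had a higher fitted level in FSP1-Cre;NT3, against 51.1% of all genes, and the median log2 fold change was 2.02, against 0.01 over all genes. This rested on tumor 36: without it 28 of 43 were higher and the median was 0.45. Leaving out Osx-Cre;NT3 tumor 13 instead gave a median of 4.10, with 46 of 46 higher. DESeq2 then called 19 of the 46 members tested and 236 genes in all, while edgeR called 0. The Osx-Cre;NT3 arm then consisted of tumors 18 and 25, the lowest pair for most Lce genes. For the fits with a tumor left out, the share over all genes was not computed. Their counts therefore cannot be read as particular to the members. With site as a covariate the median was 0.80, and among trunk tumors alone, where tumor 29 is the sole FSP1-Cre;NT3 tumor, it was 0.87.

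Among the 12 members with the highest mean CPM, the log2 fold change of FSP1-Cre;NT3 over Osx-Cre;NT3 was largest for Tgm3, at 4.99 ± 1.97 (SE, adjusted p = 0.458), with means of 39.3 ± 66.4 and 1.25 ± 0.676 CPM (SD, n = 3 each, edgeR). Casp14 followed at 3.33 ± 1.23 (adjusted p = 0.458) and Cdsn at 2.08 ± 1.03 (adjusted p = 0.466). In all 3, 1 FSP1-Cre;NT3 tumor carried the mean. Rptn was at 1.68 ± 1.15 (adjusted p = 0.544), Krtdap at 1.44 ± 1.48 (adjusted p = 0.694), Hrnr at 1.27 ± 1.59 (adjusted p = 0.749), Lor at 1.19 ± 1.10 (adjusted p = 0.655) and Tchh at 0.92 ± 0.97 (adjusted p = 0.698). For these genes the standard error was close to the estimate or above it, except for Rptn. Tgm1 was at 0.30 ± 0.48 (adjusted p = 0.806), Sprr1a at 0.25 ± 0.75 (adjusted p = 0.901), Calml3 at 0.20 ± 0.45 (adjusted p = 0.863) and Sbsn at -0.14 ± 0.56 (adjusted p = 0.927). With site as a covariate Tchh, Krtdap, Sprr1a and Tgm1 turned to estimates below 0, at -0.93, -0.36, -1.20 and -0.44. By role the median log2 fold change was 2.69 for the 9 Sprr and 2.35 for the 16 Lce genes tested, and 0.20 for the 3 secreted and calcium-binding genes.

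The second comparison was between the sites, 2 perineal and 4 trunk tumors. Both perineal tumors were FSP1-Cre;NT3, so this split overlaps with the first and shares its tumors. By edgeR, 0 of the 46 members tested were called at adjusted p under 0.05, and 0% of all 16971 genes. The smallest adjusted p was 0.281, for Tgm3. At an unadjusted p under 0.05, 9 members, or 19.6%, were higher in perineal tumors, against 8.88% of all genes: Tgm3, Sprr2e, Sprr2f, Sprr4, Casp14, Cdsn, Sprr2h, Sprr1b and Sprr2d. DESeq2 called 3 of 45 members, Tgm3 (adjusted p = 0.0176), Casp14 (adjusted p = 0.0389) and Sprr4 (adjusted p = 0.0403), or 6.67% against 3.42% of all genes called higher.

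Perineal tumors lay above trunk tumors without overlap for 2 of the 46, Sprr2e and Sprr2f, or 4.35% against 10.2% of all genes. Sprr2f failed the low-count filter of the line comparison and passed that of the site comparison only through the perineal tumors, where it was high. The filter thus favored its place here and among the members at an unadjusted p under 0.05. Sprr2e was at 0.491 and 1.96 CPM in the perineal tumors and at most 0.273 CPM on the trunk, and Sprr2f at 0.246 and 1.15 CPM against at most 0.0769 CPM. Both shared part of their sequence with other Sprr2 genes, 10.2% and 0.714% of their 50-base stretches.
All 46 members had a higher fitted level in perineal tumors, against 48.5% of all genes, with a median log2 fold change of 1.68 against -0.02 over all genes. Without tumor 36 the direction turned: 6 of 46 were higher and the median was -1.02, with tumor 27 as the only perineal tumor and assumed to vary like the rest. Without tumor 27 the median was 2.85, with tumor 36 as the only perineal tumor. The share of all genes higher in perineal tumors was not computed for either fit.

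Perineal over trunk, the log2 fold change of Tgm3 was 5.53 ± 1.41 (SE, adjusted p = 0.281), with means of 58.3 ± 81.6 CPM (SD, n = 2) and 1.27 ± 0.554 CPM (SD, n = 4, edgeR). Casp14 was at 3.28 ± 1.07 (adjusted p = 0.349) and Cdsn at 2.40 ± 0.86 (adjusted p = 0.397). The second perineal tumor, 27, lay below at least 1 trunk tumor for each of these 3 genes. Rptn was at 2.00 ± 1.03 (adjusted p = 0.542), Krtdap at 1.95 ± 1.36 (adjusted p = 0.602), Tchh at 1.54 ± 0.84 (adjusted p = 0.552) and Hrnr at 1.34 ± 1.56 (adjusted p = 0.758). Sprr1a was at 0.85 ± 0.69 (adjusted p = 0.650), Lor at 0.70 ± 1.16 (adjusted p = 0.838), Tgm1 at 0.65 ± 0.44 (adjusted p = 0.594), Sbsn at 0.27 ± 0.57 (adjusted p = 0.878) and Calml3 at 0.04 ± 0.47 (adjusted p = 0.983). With line as a covariate Calml3 and Lor turned to -0.20 and -0.13, and the median over the members was 0.99.

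**Figure D5:**
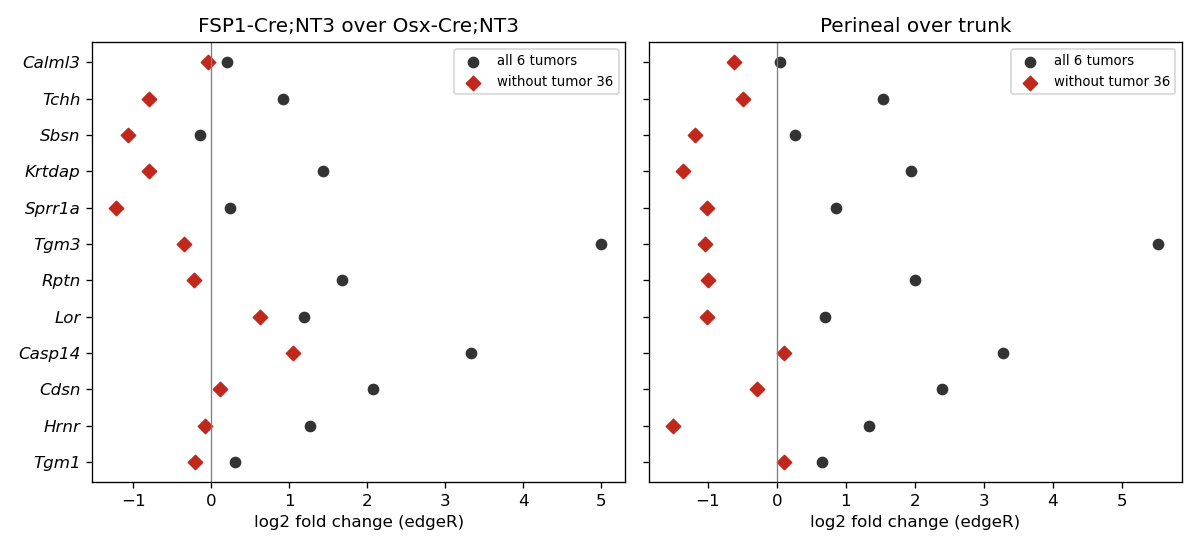
Fitted log2 fold change (edgeR) of the 12 members with the highest mean CPM, between lines on the left and between sites on the right, with all 6 tumors (grey circles) and without tumor 36 (red diamonds). Without tumor 36 each estimate is lower, and 10 of the 12 site estimates are below 0.

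Genes that work with the members were read from fixed lists in the same fits. Of 16 further envelope, desmosome and suprabasal keratin genes, 0 were called in either comparison by edgeR. At an unadjusted p under 0.05, 0 differed between lines and 2 were higher in perineal tumors, Cst6, a protease inhibitor, and Dsc1, a desmosomal cadherin. Of the 16, 12 were highest in tumor 36, as most members were, among them Krt1, Krt10, Evpl, Dsc1 and Cst6. The 3 with the highest mean CPM were not. Spink5, the inhibitor of epidermal kallikreins, stood at 472, 706 and 294 CPM, then 391, 366 and 279 CPM. Dsg1a, a desmosomal cadherin, stood at 349, 284 and 480 CPM, then 292, 315 and 167 CPM. Ppl (periplakin), which links the envelope to keratins, stood at 120, 80.1 and 147 CPM, then 120, 172 and 77.9 CPM. For these 3 genes tumor 36 was the lowest of the 6.

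Of 16 genes of the lipid barrier, 0 were called by edgeR, and at an unadjusted p under 0.05 only the glucosylceramide synthase gene Ugcg was higher in FSP1-Cre;NT3, while 4 were higher in perineal tumors, Ugcg, Elovl4, Cyp4f39 and Sdr9c7. Of the 16, 11 were highest in tumor 36, with a list sum of 592 CPM there. In the other 5 tumors the sum lay between 289 and 343 CPM. Among the genes with the highest mean CPM, Elovl1, a fatty acid elongase, lay between 48.3 and 76.2 CPM, and Abhd5, a lipase cofactor, between 42.8 and 75.4 CPM, a narrow range beside that of the list's Ugcg, at 10.4 to 76.2 CPM. Of 13 transcription factors of keratinocyte differentiation, 0 were called by edgeR and 5 were highest in tumor 36. At an unadjusted p under 0.05, Klf4, Prdm1 and Gata3 were higher in FSP1-Cre;NT3 and in perineal tumors. Cebpa stood at 413, 325 and 335 CPM, then 314, 359 and 175 CPM. Nfe2l2 (NRF2) lay between 99.5 and 135 CPM. Klf4, a factor of barrier formation named here after its values were seen, stood at 13.5, 13.5 and 11.6 CPM, then 27.0, 23.7 and 233 CPM.

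Markers of other cell types moved with tumor 36, and their part in the members' values was not tested. Of 6 sebaceous gland markers, 6 were highest in tumor 36, with a sum of 75.5 CPM there, 3.22 and 3.21 CPM in tumors 27 and 29 and 2.00 to 5.63 CPM in the Osx-Cre;NT3 tumors; Mc5r, a defining one, was at 0 in 4 tumors. The 5 hair sheath and 7 hair shaft markers were all highest in tumor 36. Of 6 simple epithelium markers 4 were highest there, with a sum of 4744 CPM, against 785 and 620 CPM in tumors 27 and 29 and 1028 to 1188 CPM in Osx-Cre;NT3. The 5 smooth muscle and myoepithelial, 5 adipocyte and 5 neutrophil markers were all highest in tumor 36, with sums of 2310, 128 and 476 CPM. In tumors 27 and 29 these sums were 349 and 302, 36.2 and 3.31, and 163 and 53.8 CPM, and in Osx-Cre;NT3 they ran from 240 to 546, from 2.53 to 12.7 and from 21.1 to 64.2 CPM. Of 6 basal keratinocyte markers 0 were highest in tumor 36, where their sum was 5670 CPM against 9954 to 14245 CPM in the others. Of 4 wound keratins, Krt6a, Krt6b and Krt16 were highest in tumor 36 and Krt17 lowest. Of 5 oral and oesophageal keratins 2 were highest there, with sums of 7.69 to 33.1 CPM over Osx-Cre;NT3 and 12.2 to 18.0 CPM over FSP1-Cre;NT3 tumors, and of 5 fibroblast markers 3 were.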

How the data were processed

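RNA from 6 NT3 tumors was measured by RNA-seq. The paper's methods state that reads were trimmed, then placed on mm10 by HISAT2 and assigned to genes by featureCounts, while the submitters' processing notes name bcl2fastq, TopHat2 2.0.6 and HTSeq; annotation and strand setting are not given in the sources used here. The authors deposited raw counts per gene and RPKM values. Every deposited count is even, so that limits from 3 counts could be higher if both ends of a pair were counted; they cover counting error only. RPKM served only to compare genes of different length.

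Groups came from the sample labels. Lines and sites were compared with edgeR 4.0.16 in R 4.3.3 (filterByExpr, TMM, glmQLFit, glmQLFTest, Benjamini-Hochberg over all genes tested, adjusted p under 0.05), with no covariate. Alternatives were DESeq2 1.42.0, other scalings and filters, covariates, subsets, each tumor left out, and, added after seeing the data, halved counts. Fitted scripts were tested on simulated data. Members, lists and roles were chosen with earlier results of these data known. Values per tumor are given for members with a mean of at least 1 CPM, fold changes for the 12 with the highest mean CPM and for any past the threshold, and the 3 highest genes of each pathway list, except for genes that are not reported here. Promoters came from RefSeq and transcripts from GENCODE M21. Of the list genes, Flg, Cers3 and Krt72 were not analysed here.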

Additional observations from a re-analysis of the deposited data

Results flagged for a closer look

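In 4 of 38 sets of values tested, 1 tumor stood apart from the rest by Dixon's criterion on log2 values. For separate sets, chance alone would flag 1.9. These sets overlap, as single genes also entered the sums and trunk tumors entered both groupings. The 4 flags are therefore not separate findings, and Tgm3 made up most of the flagged transglutaminase sum. Tgm3 was at 116 CPM in tumor 36 and at most 2.03 CPM in the other 5. The summed transglutaminases were at 131.6 CPM in tumor 36, with 10.07 CPM in the next. The summed lipoxygenase, caspase and adhesion genes were at 73.12 CPM in tumor 36, with 10.41 CPM in the next. Among the 4 trunk tumors alone, Tgm1 was at 8.377 CPM in tumor 18, with 4.761 CPM in the next.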

How the results depend on the processing

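No paired analysis was possible because the lines share no replicate numbers. By edgeR 0 members were called in either comparison under other scalings, other filters, covariates, subsets and halved counts. DESeq2 called 1 member and 420 genes between lines, and 3 members and 605 genes between sites. Leaving out each tumor with edgeR or DESeq2, the members called ran from 0 to 19 between lines and from 0 to 13 between sites, and all genes called from 0 to 3650 and from 0 to 1492. The highest count of members between lines came without tumor 13 and between sites without tumor 27, in DESeq2. Without tumor 13, DESeq2 called 236 genes in all between lines. The 3650 genes came without tumor 25, where DESeq2 called 0 members. Over the fits with 1 tumor left out, the median log2 fold change of the members ran from 0.43 to 4.10 between lines. Between sites it ran from -1.06 to 2.88, with both lowest values without tumor 36. Without tumor 29, line and site are the same split. Between lines, the median was 0.80 with site as a covariate and 0.87 in trunk tumors alone, where FSP1-Cre;NT3 has 1 tumor. In these fits 4 genes turned direction, Tchh to -0.93 and -0.93, Krtdap to -0.36 and -0.36, Sprr1a to -1.20 and -1.21, and Tgm1 to -0.44 and -0.45. Between sites, with line as a covariate and in FSP1-Cre;NT3 tumors alone, Calml3 turned to -0.20 and -0.21 and Lor to -0.13 and -0.14. The cause was not tested. Leaving out each tumor, the log2 fold change between lines ran for Calml3 from -0.18 to 0.55, Tchh from -0.81 to 1.81, Sbsn from -1.08 to 0.22, Krtdap from -0.82 to 3.80, Sprr1a from -1.23 to 0.65, Tgm3 from -0.36 to 5.57, Rptn from -0.22 to 2.91, Lor from 0.61 to 3.38, Casp14 from 1.03 to 4.26, Cdsn from 0.10 to 2.56, Hrnr from -0.10 to 5.25 and Tgm1 from -0.22 to 0.66. Between sites it ran for Calml3 from -0.66 to 0.51, Tchh from -0.52 to 2.36, Sbsn from -1.22 to 0.99, Krtdap from -1.41 to 3.25, Sprr1a from -1.04 to 1.65, Tgm3 from -1.07 to 6.53, Rptn from -1.02 to 2.92, Lor from -1.04 to 1.48, Casp14 from 0.07 to 4.21, Cdsn from -0.32 to 3.30, Hrnr from -1.54 to 2.42 and Tgm1 from 0.07 to 1.06. On the deposited RPKM in place of CPM, the mean share of the members' sum was 7.94% for S100-fused (25.8% on CPM), 7.49% for Lce (3.95%) and 18.5% for Sprr genes (8.53%). With halved counts, an alternative chosen after seeing the data, the medians were 2.01 between lines and 1.70 between sites. The precision is limited by 6 tumors and by shared sequence among Lce and Sprr genes, and a lone tumor of a site or line was assumed to vary like the rest.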

Other observations

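The epidermal differentiation complex holds 9 entries that are no members, of which 4 passed the filter. The genes named here were chosen after their values were seen. Kprp, a keratinocyte proline-rich protein between the Lce genes, stood at 1.99, 0.0649 and 0.141 CPM in tumors 13, 18 and 25, then 0.583, 2.92 and 7.98 CPM in tumors 27, 29 and 36. Crct1 stood at 5.55, 0.870 and 1.38 CPM, then 1.26, 4.10 and 25.6 CPM, and 2310050C09Rik at 2.24, 0.0130 and 0.169 CPM, then 0.460, 1.85 and 5.49 CPM. Tumors 18 and 25 were among the 3 lowest for each of these. Prr9, next to Lor in position, stood at 0.869, 10.7 and 12.2 CPM, then 2.42, 0.744 and 71.5 CPM, with tumors 25 and 18 directly below tumor 36, as for the hair sheath keratins and unlike Lor.

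Krt2, the keratin of the uppermost epidermal layers, went against the members. It stood at 25.8, 0.403 and 0.113 CPM in the Osx-Cre;NT3 tumors and at 0.246, 2.92 and 0.748 CPM in the FSP1-Cre;NT3 tumors, so that it was highest in tumor 13 and low in tumor 36, where Lor, Krt1 and Krt10 were at their maximum. Elovl4, an elongase for the very long fatty acids of the barrier, stood at 9.27, 0.883 and 1.89 CPM, then 3.74, 3.67 and 154 CPM.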
